A study of Drosophila melanogaster with 384 samples.

Results

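The Cpr genes encode proteins of the insect cuticle, and their chromatin was examined in sens-GFP+ cells of the eye-antennal disc of Drosophila melanogaster. Members were taken by name, as the protein-coding genes of the release 6 annotation whose symbol is Cpr followed by a number. This gave 70 of 13986 protein-coding genes; the gene named Cpr alone, a cytochrome P450 reductase, is not one of them. The cells came from the strain F2-B(sens)-GFP (genotype w;F2-B/CyO), in which an intronic sens enhancer targeted by Atonal drives GFP. Discs were pooled from wandering larvae in the third instar and dissociated with trypsin, and live cells positive for GFP were sorted and loaded on the Fluidigm C1, where single-cell ATAC-seq was run on each captured cell. In this assay the transposase Tn5 cuts and tags DNA that is open, so more counts mean more accessible chromatin. The labels give 1 group with no control, so the reporter marks the cells chosen and no other disc cells were compared.

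Cuticle is a layered matrix of chitin fibres and proteins that epidermal cells secrete on their outer side. Many of its proteins, the Cpr family among them, share the Rebers-Riddiford consensus, a stretch that binds chitin. Each larval, pupal and adult stage has its own set of such proteins, and the eye-antennal disc itself makes the adult cuticle of the head and the corneal lenses only after the larval stage. Members were taken by name and not by stage, so the family is not this later programme alone. Whether the promoters of the family are open in cells that begin eye differentiation is the question that the counts below address as a description.

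The deposited table held whole-number counts for 72 of the labelled cells in 68775 listed regions, with between 908 and 5892 counts per cell (median 2694.5). Counts were summed over the 72 cells and divided by region length in kb, since most entries are 0 or 1. A promoter region is a listed region that overlaps 500 bp on either side of an annotated start site (TSS) of a protein-coding gene. A distal region overlaps no such stretch of any annotated gene, coding or non-coding, transposable elements aside. The whole sort is 1 sample, so no test across samples could be made, and the intervals in brackets are exact 95% intervals of counting error only. As a point of reference, the promoter regions of sens, a gene of the R8 photoreceptor, held 21 counts in 16 cells, or 16.3 counts per kb. Those of gl, which encodes the photoreceptor regulator Glass, held 29 counts in 25 cells, or 22.6 counts per kb. These densities were at the 95.8th and 98.9th percentiles of genes. With no other disc cells compared, they cannot show which cells were sorted.

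The family label was checked in the coding sequences. An approximate form of the Rebers-Riddiford consensus was found in 58 of the 70 translated Cpr genes (82.9%), against 40 of 13898 other genes (0.288%), of which 24 are cuticle protein genes under other names. The 12 members without a match included Cpr97Eb, Cpr62Ba and Cpr73D, which are described below by their name only.

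The promoters themselves show what many of these genes have in common. A TATA box, the core promoter element at which transcription of many strongly regulated genes is set, was found far more often than elsewhere. Promoters are given from 150 bases before to 20 bases after the start site, in the release 6 assembly as RefSeq provides it. Capitals mark the TATA core TATAAA and, where present, the GAGA core GAGAG or the initiator core TCAGT near the start. The first belongs to Cpr97Eb, the member with most counts per kb in a region that contains its start site. The next pair are the known corneal lens genes, and the last is a member with 0 counts.

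Cpr97Eb, chr3R:27091111-27091280, minus strand: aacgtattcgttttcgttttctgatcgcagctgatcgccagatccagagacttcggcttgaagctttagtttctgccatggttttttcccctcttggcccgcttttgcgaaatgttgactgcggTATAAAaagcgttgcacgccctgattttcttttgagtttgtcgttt

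Cpr66D, chr3L:8640289-8640458, plus strand: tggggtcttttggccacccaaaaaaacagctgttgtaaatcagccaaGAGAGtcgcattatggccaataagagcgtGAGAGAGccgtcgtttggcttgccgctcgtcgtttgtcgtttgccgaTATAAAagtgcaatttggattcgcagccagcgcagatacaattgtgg

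Cpr72Ec, chr3L:16367321-16367490, minus strand: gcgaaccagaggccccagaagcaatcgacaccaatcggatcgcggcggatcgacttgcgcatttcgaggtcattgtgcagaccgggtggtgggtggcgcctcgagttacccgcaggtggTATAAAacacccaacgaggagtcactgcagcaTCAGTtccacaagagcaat

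Cpr66Cb, chr3L:8336522-8336691, plus strand: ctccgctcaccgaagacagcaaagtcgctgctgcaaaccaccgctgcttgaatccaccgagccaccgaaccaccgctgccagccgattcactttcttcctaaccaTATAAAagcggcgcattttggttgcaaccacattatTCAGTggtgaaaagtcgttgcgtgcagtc

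All 4 of these promoters hold the core within the 45 bases before the start. They include members with counts (Cpr97Eb, Cpr66D), with none (Cpr66Cb) and with no listed region (Cpr72Ec). They are examples only, and other members lack the core. Cpr92F, with 7 counts, and Cpr76Bd and Cpr30B, with 0 counts, do not have it. Over the family, the core lay between 45 and 15 bases before the start in 42 of 70 promoters (60.0%), against 1200 of 13897 promoters of other genes (8.63%). Anywhere in the window of 300 bases (250 before to 50 after the start) it was found in 72.9% of Cpr promoters and in 32% of other promoters, on the sense strand. The DRE core TATCGATA, an element of promoters that are active in most cells, was in 1 Cpr promoter (1.43%), against 8.97% of other promoters, with both strands searched. The remaining cores differed less. GAGAG was in 37.1% of Cpr promoters and 30.1% of others, the initiator core TCAGT in 41.4% and 36.4%, and the Grainyhead cores AACCGG or CCGGTT in 12.9% and 7.14%. The family was thus rich in the TATA core and poor in the DRE core. A match to these letters is a description and not a measured site, and variants of the cores were not searched for.

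**Figure D1:**
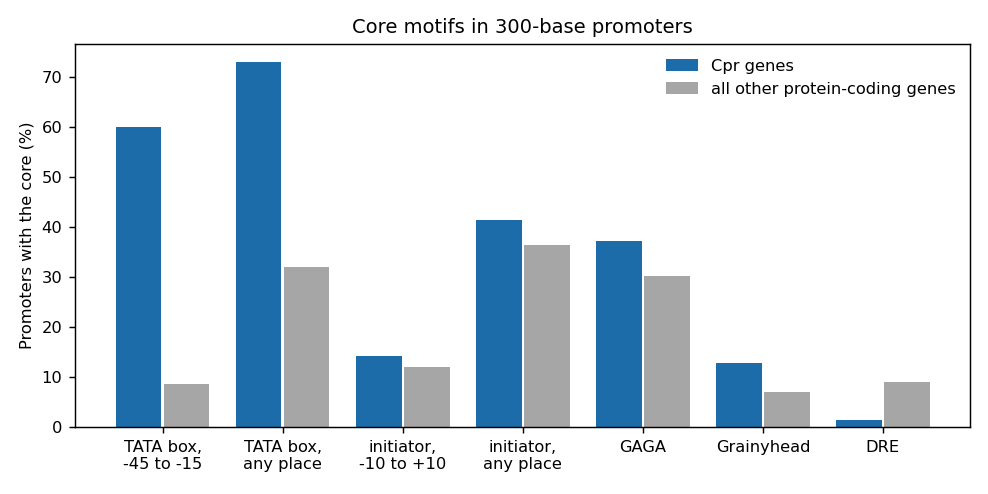
Share of promoters (%) that hold each core, for the 70 Cpr genes (blue) and 13897 other protein-coding genes (grey), in windows of 300 bases around the start unless a place is given. The TATA core near the start stands out, with 60.0% of Cpr promoters and 8.63% of other promoters.

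Within the family, the median differed little with the TATA core. Among listed Cpr genes the median density was 1.17 counts per kb with the core near the start and 1.14 without it. Among other genes the medians were 1.87 counts per kb with the core and 3.93 without it. Other genes with a DRE core had a median of 6.07 counts per kb.

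A promoter region was listed for 55 of the 70 Cpr genes. The remaining 15 (21.4%) had none, against 16.2% of all protein-coding genes. These 15 were Cpr11B, Cpr49Ag, Cpr62Bb, Cpr64Ac, Cpr65Av, Cpr65Ax1, Cpr65Ax2, Cpr65Ea, Cpr65Eb, Cpr67B, Cpr72Ec, Cpr76Bb, Cpr76Bc, Cpr78Ca and Cpr78E. Of them, 13 lie among the 35 members on 3L (37.1%, against 15.5% of other genes on 3L). Nothing can be said of the openness of the start sites of these 15 genes. Among them is Cpr72Ec, which encodes a protein of the corneal lens. Cpr65Ax1 and Cpr65Ax2 are near-identical copies, and only 23.6% and 27.9% of the 31-base words around their start sites occur once in the genome. Reads from these copies could be split or lost in mapping. How the authors chose which regions to list is not given in the sources used here.

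The promoters of the Cpr genes were far less accessible than promoters in general. Their 66 promoter regions, 70.5 kb in all, held 1.62 counts per kb (1.33 to 1.94). The 16306 promoter regions of other genes held 4.82 counts per kb (4.79 to 4.86). The ratio was 0.335 (0.276 to 0.402), and at the density of other promoters 340 counts would have fallen in the Cpr regions. The Cpr promoters were instead near the level of distal regions, which had 1.88 counts per kb. That ratio was 0.857 (0.707 to 1.03), so over all 66 regions no difference from distal regions was resolved at this depth. Of the Cpr promoter regions, 14 had no count in any cell (21.2%), against 14.4% of all promoter regions.

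For 5 of the 55 listed members (Cpr47Ee, Cpr47Ef, Cpr47Eg, Cpr67Fb and Cpr78Cc) the listed region lies within 500 bp of the start site but does not contain it. With only regions that contain a start site, the density was 1.45 counts per kb (1.15 to 1.80) for the 50 remaining members and 5.17 for other genes. This interval for the members lies below the 1.88 counts per kb of distal regions. The comparison with distal regions thus depends on which regions are counted.

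The low density was found on each chromosome arm that carries members. The ratio of Cpr to other promoter regions was 0.191 (0.0395 to 0.560) on X, 0.229 (0.0744 to 0.535) on 2L, 0.324 (0.231 to 0.444) on 2R, 0.362 (0.270 to 0.477) on 3L and 0.425 (0.243 to 0.690) on 3R. Each interval lay below 1, and the intervals of the arms overlapped. GC content and sequence uniqueness were similar. The median GC content was 41.2% in Cpr promoter regions and 39.4% in others, and no Cpr promoter region had less than 98.5% unique 31-base words.

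Gene by gene, the median and both quartiles of the family were lower than those of other genes. The median Cpr gene had 1.17 promoter counts per kb (quartiles 0.766 and 2.27), against 3.71 for the median of other genes (quartiles 1.53 and 7.58). Only 3 of the 55 listed members (5.45%) were above the pooled density of other promoters, against 40.6% of all listed genes. At the other end, 9 of 55 listed members (16.4%, 7.77 to 28.8%) had 0 counts, against 8.03% of all listed genes. The interval includes the share of all listed genes, so this difference was not resolved. Most members had few counts, since 22 had 1 count, 10 had 2 and 7 had 5 or more. A count of 1 or 2 cannot place a member as closed or open. With counts this low, single members can rarely be ordered, and the intervals of most of them overlap. Because a short promoter collects fewer counts, the comparison was also made by listed length. Over the quartiles of promoter length, shortest first, the members with 0 counts were 1 of 9 (11.1%), 3 of 20 (15.0%), 5 of 16 (31.2%) and 0 of 10, against 14.3, 10.9, 5.45 and 1.37% of other genes. The share of members with 0 counts was thus not higher at every length. The median of the members was lower in each quartile, at 1.92, 0.981, 0.929 and 1.02 counts per kb, against 4.38, 2.92, 3.40 and 4.04 for other genes. Members are not independent here, since some share a region and many lie side by side.

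**Figure D2:**
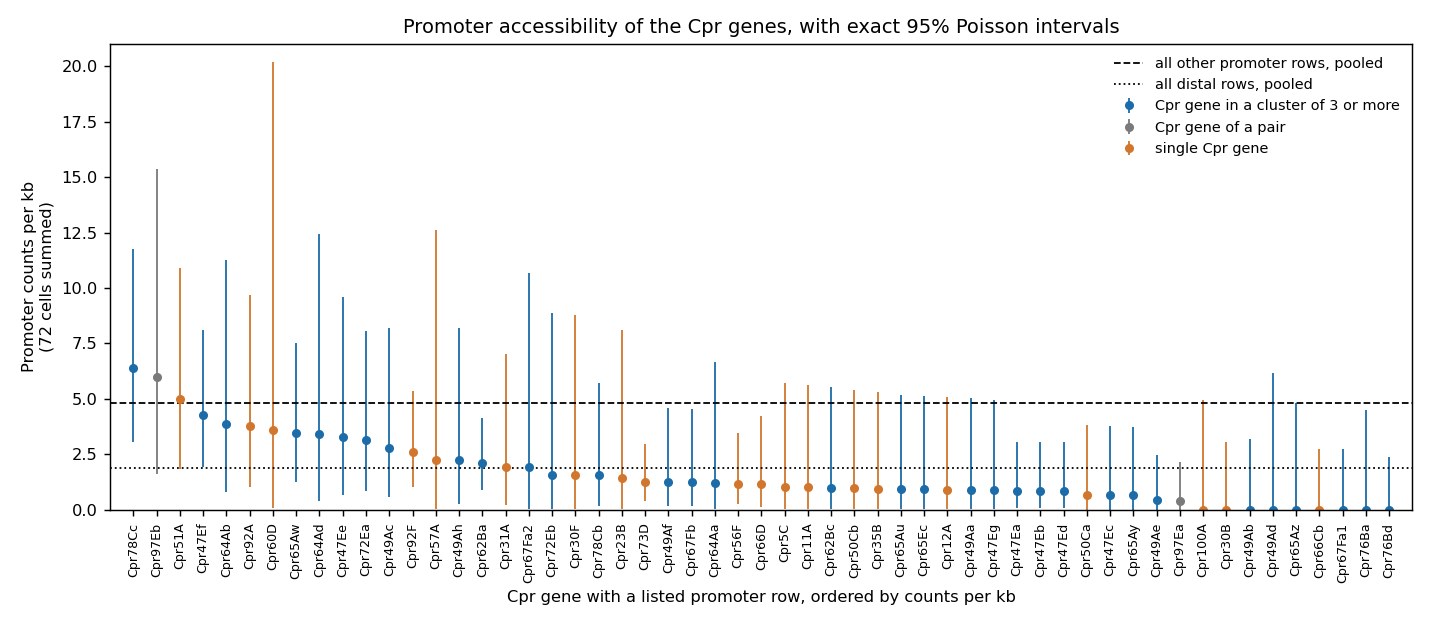
Promoter counts per kb, summed over 72 cells, for the 55 Cpr genes with a listed promoter region, from highest to lowest (bars: exact 95% Poisson intervals; blue, in a cluster of 3 or more; grey, pair; orange, single). The dashed line is the pooled density of other promoter regions (4.82) and the dotted line that of distal regions (1.88); 3 members lie above the dashed line and 9 are at 0.

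The highest density by this rule was that of Cpr78Cc, with 10 counts in 8 cells on a region of 1562 bp, or 6.40 counts per kb (3.07 to 11.8). This region, chr3L:21301047-21302608, begins 467 bp downstream of the start and runs 1437 bp past the end of the gene, so it says nothing of the start site itself, for which no region was listed. With 100 or 250 bp on either side of the start, Cpr78Cc had no listed region. Cpr97Eb followed, with its start inside the region, and had 4 counts in 4 cells, or 6.0 counts per kb (1.63 to 15.4). Cpr51A had 6 counts in 6 cells, or 5.02 counts per kb (1.84 to 10.9). These 3 were the members above the density of other promoters, and the intervals of all 3 include that density.

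Some of the next members rested on a single cell. Cpr47Ef had 9 counts, or 4.27 counts per kb (1.95 to 8.10), but all of them came from 1 cell with 3156 counts in all, and the region begins downstream of the start. An entry of 9 or more occurred in 22 of the 163689 entries above 0 in the whole table. Counted once per cell, Cpr47Ef had 1 count and 0.474 counts per kb. Cpr64Ab had 3 counts, also in 1 cell, or 3.86 counts per kb (0.796 to 11.3). Cpr60D reached 3.62 counts per kb (0.0917 to 20.2) with 1 count on a short listed region. Among Cpr promoter entries above 0, 89.5% were equal to 1, against 83.7% in other promoter regions, so repeated counts were not general in the family.

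Several members spread their counts over separate cells. Cpr92A had 4 counts in 3 cells, or 3.79 counts per kb (1.03 to 9.70). Cpr65Aw had 6 counts in 6 cells, or 3.45 counts per kb (1.27 to 7.51), of which 3 lay in a region shared with Lcp65Ad, a larval cuticle protein gene. Cpr64Ad had 2 counts in 2 cells, or 3.44 counts per kb (0.416 to 12.4), and Cpr47Ee 3 counts in 3 cells, or 3.28 counts per kb (0.677 to 9.59), in a region that ends 451 bp upstream of its start. Each interval includes both the density of other promoters and that of distal regions, so these members cannot be placed with either.

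Members with long promoters had more counts at a lower density. Cpr62Ba had 8 counts in 8 cells over 3798 bp, or 2.11 counts per kb (0.909 to 4.15). Cpr92F had 7 counts in 5 cells over 2697 bp, or 2.60 counts per kb (1.04 to 5.35). All 7 lay in the region that holds the start and the upstream side, at 5.38 counts per kb, and the region downstream of the start had 0. Cpr73D had 5 counts in 5 cells, or 1.27 counts per kb (0.413 to 2.97), and 4 of them fell in regions shared with Obp73a, an odorant-binding protein gene, or Ogdh, a gene of the citric acid cycle. Sharing did not raise the family total. The 7 regions shared with genes outside the family held 1.44 counts per kb (0.720 to 2.58), and the 59 regions of Cpr genes alone 1.64 (1.34 to 1.99).

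The longest promoters with 0 counts were those of Cpr76Bd (1541 bp), Cpr66Cb (1347 bp), Cpr67Fa1 (1342 bp), Cpr30B (1204 bp) and Cpr49Ab (1160 bp). A count of 0 allows up to 3 counts as a one-sided 95% limit, which is 1.95 counts per kb for Cpr76Bd and 2.59 for Cpr49Ab. The exact 95% intervals of the plot of members reach 2.39 and 3.18 counts per kb. All these limits lie between the density of distal regions and that of other promoters. Cpr100A, Cpr49Ad, Cpr65Az and Cpr76Ba also had 0 counts, on shorter regions. The 500 bp on either side of the Cpr67Fa1 and Cpr67Fa2 start sites are partly repeated, with 92% and 94.2% unique 31-base words. The listed regions of both genes contain the start and had 100% unique words.

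Cpr66D, which encodes a corneal lens protein, had 2 counts in 2 cells at its promoter, or 1.17 counts per kb (0.142 to 4.24), the same as the median member. Its second intron was different. A listed region 642 bp downstream of the start held 9 counts in 7 cells (4.12 to 17.1 counts). Its density of 11.1 counts per kb ranked at the 95.3rd percentile among distal regions. It was chosen after its values were seen. The region, chr3L:8641081-8641889, lies in this intron and includes 1 base of exon 2. A stretch of it is shown because no other distal region inside a Cpr gene had as many counts, with capitals for the only CAGCTG core, an E-box, and the only TGATAC core, that of the eye regulator Sine oculis.

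Cpr66D intron, chr3L:8641161-8641460, plus strand: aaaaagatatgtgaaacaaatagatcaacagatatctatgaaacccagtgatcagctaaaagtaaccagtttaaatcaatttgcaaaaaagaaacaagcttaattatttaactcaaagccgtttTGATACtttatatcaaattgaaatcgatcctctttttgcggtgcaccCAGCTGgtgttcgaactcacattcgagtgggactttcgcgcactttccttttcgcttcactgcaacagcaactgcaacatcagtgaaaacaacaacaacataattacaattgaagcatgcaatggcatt

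The cores lie within 53 bases of each other. Either is common by itself, since 28.3% of distal regions of like length hold CAGCTG and 16.4% hold TGATAC on either strand, and no binding was measured. With the promoter distance set to 1000 bp, this region entered the promoter of Cpr66D and its density was 4.38 counts per kb.

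Many Cpr genes lie in tandem clusters, and these were compared with members that stand alone. A cluster is a chain of at least 3 members with neighbouring start sites at most 20 kb apart, which gave 10 clusters with 45 genes, 23 single genes and the pair Cpr97Ea and Cpr97Eb. Clustered genes had 70 counts in 37 promoter regions, or 1.70 counts per kb (1.32 to 2.15), and single genes 39 counts in 25 regions, or 1.50 (1.06 to 2.04). The ratio was 1.14 (0.757 to 1.73), so a difference of this size was not detectable at this depth. The median listed gene had 0.992 counts per kb in clusters and 1.18 among single genes. Of the listed genes, 6 of 33 in clusters and 3 of 20 single ones had 0 counts. A promoter region was missing for 12 of 45 clustered genes and 3 of 23 single ones.

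The clusters spanned a wide range of counts. Cpr78Ca to Cpr78Cc had the highest promoter density, 12 counts or 4.24 counts per kb (2.19 to 7.41), and 10 of the counts were those of the region downstream of the Cpr78Cc start. Without that region, as with 100 or 250 bp on either side of the start, the cluster kept the 2 counts of Cpr78Cb (1.58 counts per kb, 0.191 to 5.71). Cpr76Ba to Cpr76Bd on 3L had 0 counts in its 2 listed promoter regions, 2.364 kb long, which allows up to 3 counts. The intervals of these 2 clusters do not overlap with the Cpr78Cc region and overlap without it. They are the extremes of 10 and were picked after their values were seen. Between them came Cpr64Aa to Cpr64Ad with 6 counts and Cpr72Ea to Cpr72Ec with 5, at 2.73 and 2.63 counts per kb. Cpr47Ea to Cpr47Eg had 17 counts, 9 of which are the single cell of Cpr47Ef, at 1.92 counts per kb. Cpr62Ba to Cpr62Bc had 9 counts at 1.87 counts per kb, and Cpr65Au to Cpr65Az, which lies among larval cuticle protein genes, 8 at 1.58. Cpr49Aa to Cpr49Ah, with 8 genes the largest cluster, had 9 counts at 1.04 counts per kb. Cpr65Ea to Cpr65Ec had 1 count and Cpr67Fa1 to Cpr67Fb 3, both under 1 count per kb. All 8 of these clusters had intervals that overlapped each other.

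Counts of the family were scattered thinly over the cells. Of the 72 cells, 55 had at least 1 count in a Cpr promoter region (76.4%, 64.9 to 85.6%), with a median of 1 count and a maximum of 10. By number, 25 cells had 1 count, 18 had 2, 5 had 3 and 7 had more. The maximum was the cell that gave the 9 counts of Cpr47Ef. Cpr promoter regions held 0.0577% of all counts on 0.0889% of the listed bases, whereas other promoter regions held 37.7% on 19.4%. The share of cells with a count followed depth. Of the 36 deeper cells 33 had a Cpr count, with 0.0652% of their counts in these regions, against 22 of the 36 shallower cells with 0.0451%. Over the 72 cells of this library Pearson's r between depth and Cpr counts was 0.417, given as a description because all cells share the library. The share in the deeper cells and r both include the 9 Cpr47Ef counts of 1 deeper cell. The deeper cells had 81 Cpr counts in all.

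Around their start sites, Cpr genes lacked the peak seen at other genes. Regions were grouped by the distance of their middle to the nearest start site of a member. In the 500 bp downstream of the start the density was 2.43 counts per kb (1.26 to 4.25) for Cpr genes, from 5 regions with 12 counts, against 7.40 for other genes. In the 500 bp upstream it was 1.51 (1.11 to 2.0) for Cpr genes and 5.19 for other genes. Within 500 bp on either side the ratio was 0.270 (0.206 to 0.349). Farther out, from 5 to 10 kb, the densities were 2.57 upstream and 1.89 downstream for Cpr genes, and 1.99 and 2.21 for other genes. From 10 to 20 kb Cpr genes had 2.74 and 2.85 counts per kb, above the 2.0 and 1.98 of other genes. Regions this far from a Cpr gene can be promoters of its neighbours, and their part in these values was not tested. For other genes the distance was taken to the nearest of them all, which leaves their own promoters out of the far bins. The far bins of Cpr genes and of other genes are thus not like for like.

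**Figure D3:**
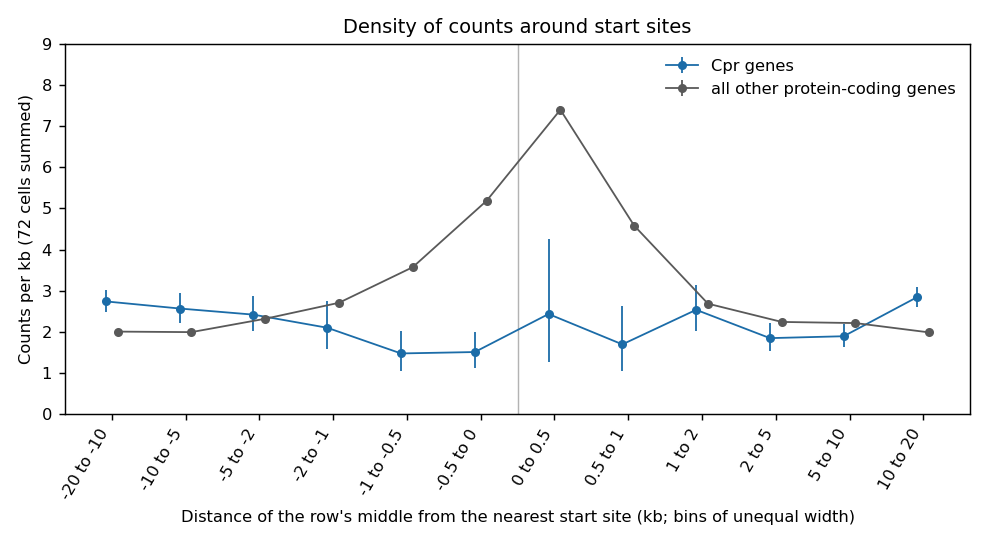
Counts per kb of listed regions by the distance of their middle from the nearest start site of the same set (kb, negative upstream, bins of unequal width), for Cpr genes (blue) and all other protein-coding genes (grey), with exact 95% Poisson intervals. Other genes peak at 7.40 just downstream of the start, while Cpr genes stay between 1.47 and 2.43 within 1 kb of it.

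Away from promoters, distal regions in the windows of Cpr genes (5 kb upstream and the introns) held 1.88 counts per kb (1.62 to 2.16). Distal regions in windows of other genes only had 2.14 counts per kb, and the ratio was 0.878 (0.759 to 1.01). Of the 58 members with such a region, 6 were among the densest 10% of genes, a limit set at 7.04 counts per kb, against 996 of 9905 other genes. These were Cpr49Ab, Cpr47Ea, Cpr60D, Cpr47Eb, Cpr51A and Cpr67Fb. For Cpr49Ab and Cpr60D this was a single count on a very short region, and the high density of Cpr47Ea and Cpr47Eb came mostly from a shared region of 88 bp with 6 counts in 5 cells. Cpr51A had 53 distal counts, and the other 5 had 10 or fewer.

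The distal counts of Cpr51A came from 1 stretch of open chromatin upstream of the gene. Cpr51A is on the minus strand of 2R from 14512559 to 14515211. The 6 listed distal regions from 14516324 to 14520599, intergenic and next to each other over 4276 bp, held 53 counts (39.7 to 69.3). This was 12.4 counts per kb (9.28 to 16.2). At least 1 of these counts was found in 35 of the 72 cells (48.6%, 36.7 to 60.7%), and no cell had more than 2 in a region. The other distal regions in Cpr windows together had 1.43 counts per kb (1.21 to 1.68). The stretch was picked after its values were seen.

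All 6 regions were well above the pooled distal density of 1.88. The highest, 14518299 to 14518824, was 3088 bp from the start and held 13 counts in 11 cells, or 24.7 counts per kb, a density at percentile 99.4 among distal regions. The region farthest from the gene, 14519807 to 14520599, also held 13 counts in 11 cells, at 16.4 counts per kb. The 4 others had 5 to 8 counts each and 7.76 to 14 counts per kb. The stretch ended sharply on its far side, where the next 4 regions toward ttv, a gene of heparan sulphate synthesis, had 2, 1, 2 and 0 counts. On the near side the density fell to the 5.02 counts per kb of the Cpr51A promoter, and a region inside the gene that is also the promoter of CG30197 had 1 count. The 2 promoter regions of ttv, with 3 and 18 counts, were separate from the stretch. None of the 6 regions held the E-box core CAGGTG, which is in 14.6 to 26% of distal regions of like length. The E-box core CAGCTG was in 4 of the 6, and TGATAC in 2. For each of these matches between 13.1 and 32.7% of distal regions of like length hold the same core. Which gene the stretch acts on, if any, was not measured.

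**Figure D4:**
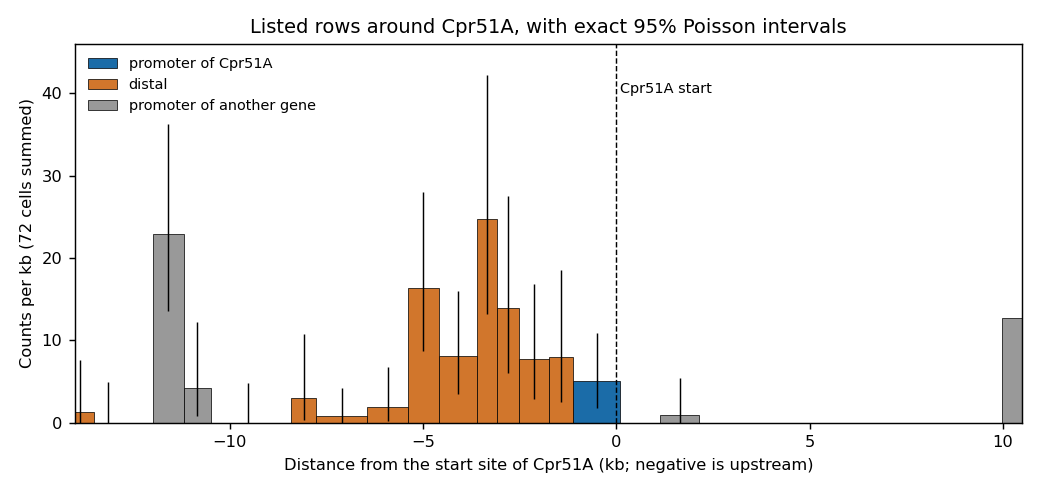
Counts per kb of each listed region around Cpr51A by its distance from the start site of the gene (kb, negative upstream), with bar widths to scale and exact 95% Poisson intervals on all but the shortest regions. The 6 distal regions between about 1 and 5 kb upstream (orange) reach 24.7 counts per kb, against 5.02 at the Cpr51A promoter (blue); grey bars are promoters of other genes.

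Few other distal regions of the family had 5 or more counts. A region upstream of Cpr49Ah, inside CG33627, had 8 counts in 6 cells, or 5.32 counts per kb. One upstream of Cpr35B had 7 in 6 cells, or 5.37, and one upstream of Cpr11A had 6 in 6 cells, or 8.28. The last of these holds 19 GAGAG cores, counted on both strands with overlaps, so 1 repeat can give many. Of distal regions of like length 58.2% hold at least 1, and how many hold as many as 19 was not counted.

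The Cpr genes were then set beside genes that work in the same matrix. Cuticle protein genes under other names, such as the larval cuticle proteins (Lcp) and the Ccp84A cluster, had a median close to that of the Cpr genes. The consensus was matched in 24 of these 27 genes. Of the 27, 18 had a listed promoter region, 3 of these had 0 counts, and the median was 1.06 counts per kb. Their promoter regions together held 1.26 counts per kb (0.828 to 1.83), below the 1.88 of distal regions. The exception was Lcp9, with 6 counts in 5 cells and 7.35 counts per kb. Crys, which encodes drosocrystallin of the corneal lens, had 1 count. Of the 25 Tweedle genes, another family of cuticle proteins, 20 were listed, 3 of these had 0 counts and the median was 1.31 counts per kb, with 1.87 (1.38 to 2.48) over all their regions. The highest was TwdlT at 4.58 counts per kb, and none was above the density of other promoters.

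Genes that make and shape chitin had higher densities. All 13 of the chosen chitin formation genes had a listed promoter region, none had 0 counts (8.03% of all listed genes), and 7 were above the density of other promoters (53.8%, against 40.6% of all listed genes). Their regions held 5.93 counts per kb (5.10 to 6.87), and the median gene had 5.68. The promoter of Cht2, a chitinase, held 31 counts in 23 cells (14.9 counts per kb), and that of verm, a chitin deacetylase, 33 counts in 23 cells (10.6 counts per kb). The chitin synthase gene kkv had 21 counts in 18 cells (9.87 counts per kb). The genes rtv, needed to organise chitin fibres, and mmy, which makes the sugar nucleotide that chitin is built from, had 9.31 and 8.99 counts per kb. The low members were obst-E, a chitin-binding protein gene, with 2 counts over 4383 bp (0.456 counts per kb), and the chitinase gene Cht5 with 2 counts (1.89 counts per kb). Pooled over all 13 genes, the interval of the chitin list lay above the 4.82 counts per kb of other promoter regions. The intervals of the 3 lists of cuticle protein genes lay below it. The pooled chitin value leans on Cht2 and verm, with 31 and 33 counts. Whether its interval stays above 4.82 without either gene was not tested. The lists are short and were described by their counts, with no test.

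**Figure D5:**
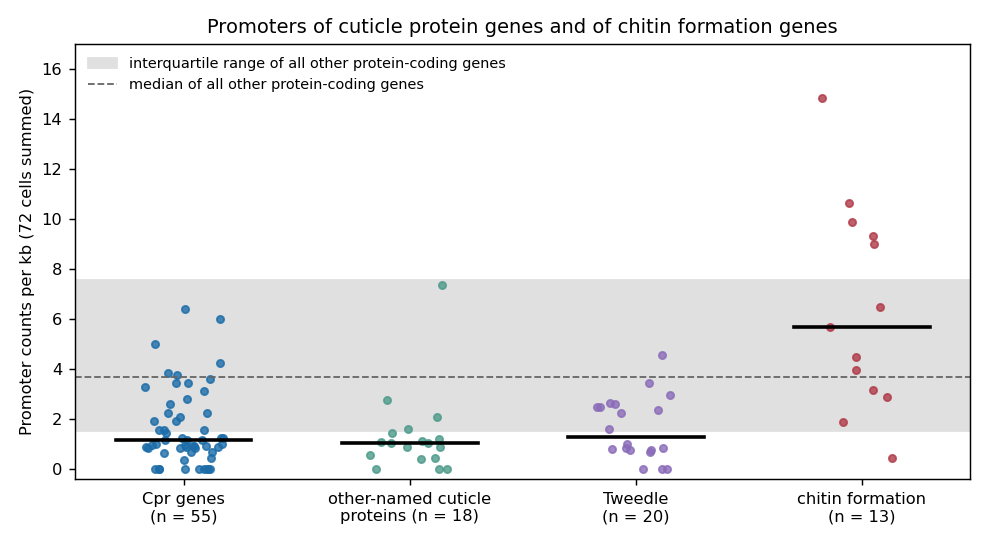
Promoter counts per kb of single genes (points) in 4 lists: Cpr genes, cuticle protein genes under other names, Tweedle genes and chitin formation genes, with the median of each list as a black bar. The dashed line and grey band are the median (3.71) and the interquartile range (1.53 to 7.58) of all other protein-coding genes; the 3 cuticle protein lists have medians from 1.06 to 1.31 and the chitin list 5.68.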

How the data were processed

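According to the study's methods and the labels, reads of each C1 cell were mapped with Bowtie2 (2.2.5) to FlyBase release 6.16, sorted with SAMtools (1.2) and freed of duplicates with Picard; cells were kept by hand. FastQC (0.1) is also named. The authors deposited raw counts per cisTarget region and cell. The counting tool, the unit counted (reads or fragments) and the listing rule are not given in the sources used here. All 72 columns matched a label, and the other labelled cells were not analysed here.

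Starts were converted to count from 1, and regions were joined to Ensembl 115 start sites and coding sequences and to the RefSeq genome. Python 3.11.15, numpy 2.4.6, pandas 2.3.3, scipy 1.17.1 and Biopython 1.88 were used. Intervals are exact Poisson (counts) or Clopper-Pearson (shares, ratios) and cover counting error only. Only the interval of the density ratio was checked, on simulated counts drawn independently for each region. That check cannot speak for counts that clump within a cell, as those of Cpr47Ef do. Without molecular identifiers, counted reads may stem from the same molecule. Named members had at least 5 counts, were among the 10 densest or the 5 longest with 0 counts, or were Cpr66D, Cpr72Ec and Cpr51A. Members and lists were chosen with earlier results of these data known.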

Additional observations from a re-analysis of the deposited data

How the results depend on the processing

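Each alternative was compared with the 95% counting interval of its main value. Across 7 main values, 56 alternatives lay inside this interval and 5 outside; none turned the ratio of Cpr to other promoters above 1. That ratio was 0.425 with 1000 bp on either side of the start, which takes in more distal sequence by construction, and between 0.280 and 0.339 under the other alternatives. The share of cells with a Cpr count was 63.9% with 100 bp and 86.1% with 1000 bp, where shorter or longer stretches were counted. With unlisted genes taken as having no count, the share of such members was 34.3%. The TATA core was in 72.9% of Cpr promoters when any place in the window counted. The last 2 settings, and those of the distance profile, of the Cpr47Ef region and of regions that contain a start site, were chosen after seeing the data. The ratio of clustered to single genes ranged from 0.815 to 1.25, so its direction is not settled. Over the named members, 4 alternative values lay outside the interval of the reported one, for Cpr47Ef (1 cell decides it; 0 counts without that cell), Cpr66D and Cpr92F. No paired analysis was possible because there is only 1 group. Depth limits single members: with 1.62 counts per kb, a promoter of typical length expects 1 or 2 counts.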
